A study of Mus musculus with 3 samples.

Results

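Stomach organoids labelled Gpx4 KO-Mist1+ were compared with organoids labelled Mist1-, with 1 library on each side, over every gene that reached an FPKM of at least 1 in either library. FPKM is the number of fragments per kilobase of exon, scaled to the fragments of the library, so it is a level per gene length. This filter kept 12951 of the 56691 genes in the table. The comparison uses 2 of the 3 libraries of the series, and the library labelled Mist1+ is given beside them for its levels. The Mist1- library was labelled wild type for Gpx4 and came from mice carrying Mist1Cre/ERT2 and RFPLSL. The Gpx4 KO-Mist1+ library came from mice that carried Gpx4F/F in addition to Mist1Cre/ERT2 and RFPLSL, and the Mist1+ library, again wild type for Gpx4, shared the genotype of the Mist1- library. Mist1Cre/ERT2 places a tamoxifen-dependent recombinase under the Mist1 promoter, and RFPLSL is a red reporter that it switches on. All donors were about 8 weeks old, all titles carry the label P5, and the organoids grew in Matrigel in a medium for proliferation, so all 3 libraries are of expanding cultures. The labels do not say how many mice or cultures stand behind a library, nor whether the agent that activates the recombinase was given to the cultures compared.

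Mist1, encoded by Bhlha15, is a transcription factor of secretory cells that builds the secretory apparatus, and in the gastric corpus it marks zymogen-secreting chief cells at the base of the gland and some cells of the isthmus. Gpx4 is the selenoenzyme that reduces lipid hydroperoxides in membranes with glutathione, and its loss sensitises cells to ferroptosis, an iron-dependent death by lipid peroxidation. Chief cells can dedifferentiate after injury into a mucous state called spasmolytic polypeptide-expressing metaplasia, and organoids from single glands grow from stem-like cells under Wnt signals.

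In counts assigned to genes, Mist1- reached 14943918, Mist1+ 16187378 and the library labelled Gpx4 KO-Mist1+ 16396693. At 3 counts, a transcript of 1000 bases has an FPKM of 0.201, 0.185 and 0.183 in that order. With 1 library a group there is no spread between replicates, so no p-value is given and every value describes these libraries. Intervals are exact 95% intervals of counting, on counts scaled to the library total, and cover counting error only. The genotype and the Mist1 label differ at once between the libraries compared, so what belongs to either cannot be told apart. In bulk RNA, fewer cells of a type and less RNA per cell cannot be told apart either. Defining markers of fibroblasts, endothelium, leukocytes and enteroendocrine cells were at or near 0: of 15, 11, 19 and 14 genes on these lists, 1, 1, 1 and 0 passed the filter. They were Fn1, fibronectin, at 2.35, 5.31 and 4.04, Esam, a junction protein, at 2.92, 1.72 and 4.08, and Cd68, a lysosomal glycoprotein, at 4.37, 5.06 and 24.4, in the order Mist1-, Mist1+ and Gpx4 KO-Mist1+, which triples keep from here on. Of 12 tuft cell markers 2 passed, Avil at 9.55, 5.00 and 17.4 and Ptgs1 at 0.400, 0.430 and 1.82.

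Gpx4 itself (chromosome 10, 80047166 to 80056439, plus strand, GENCODE M21 on GRCm38) stood at an FPKM of 171 in Mist1- and 71.6 in Mist1+, against 90.9 in Gpx4 KO-Mist1+. Set against Mist1-, the library labelled Gpx4 KO-Mist1+ had 0.532 times the level (95% interval 0.507 to 0.559), yet it exceeded Mist1+, which is labelled wild type. The log2 ratio of Gpx4 against Mist1- was -0.90, and -0.40 after subtracting the median of genes of like exonic length. A count over the whole gene does not show whether part of it was deleted, so the label could not be checked, and the library is called by its label throughout. Bhlha15 (chromosome 5, 144190286 to 144194441, plus strand) was at an FPKM of 5.40 in Mist1- and 10.2 in Mist1+, against 6.46 in Gpx4 KO-Mist1+. The library labelled Gpx4 KO-Mist1+ exceeded Mist1- in Bhlha15 by 1.20-fold (1.02 to 1.40), a small difference for the gene that gives the libraries their names.

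Of the 12951 genes, 1553 (12.0%) stood 2-fold or more above Mist1- in the library labelled Gpx4 KO-Mist1+ and 1143 (8.83%) 2-fold or more below, on log2(FPKM + 1), a scale that understates the change of low genes. Together 2696 genes (20.8%) were past 2-fold. The median log2 ratio was 0.09, with quartiles at -0.47 and 0.61. The split between directions depends on the scale: 57.6% of the genes past 2-fold were higher on FPKM, 80.3% (4076 higher, 998 lower) when both columns were brought to a common sum as TPM, and 46.4% (1262 higher, 1458 lower) when they were scaled by the median ratio. These scalings moved the median of all genes by 0.33 and -0.11 on the log2 scale, to 0.41 on TPM and -0.03 by the median ratio. TPM values were larger than FPKM, while the pseudocount and the filter stayed at 1. On TPM 15970 genes passed the filter, so its counts differ from those on FPKM by more than the common sum.

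Gene length moved with the ratio. Across genes, which are not independent replicates, the log2 ratio and exonic length had a Spearman's rho of 0.41. In the shortest quintile of genes, with a median length of 770 bases, the median log2 ratio was -0.44, with 435 genes past 2-fold upward and 644 downward. In the longest quintile, with a median of 9266 bases, it was 0.59, with 579 upward and 8 downward. The shortest of 20 length classes, from 45 to 381 bases, ran against this, at a median of 0.24 with 261 genes upward and 164 downward. Whether the trend belongs to the cells or to the libraries was not tested. Values of single genes are mostly given without correction for this trend. For most lists described, the median is also given after subtracting the median of genes of like length, taken in 20 length classes. On that footing 1123 genes (8.67%) were at least 2-fold above their length class and 790 (6.10%) below, and 820 and 576 genes were past 2-fold by both rules.

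**Figure D1:**
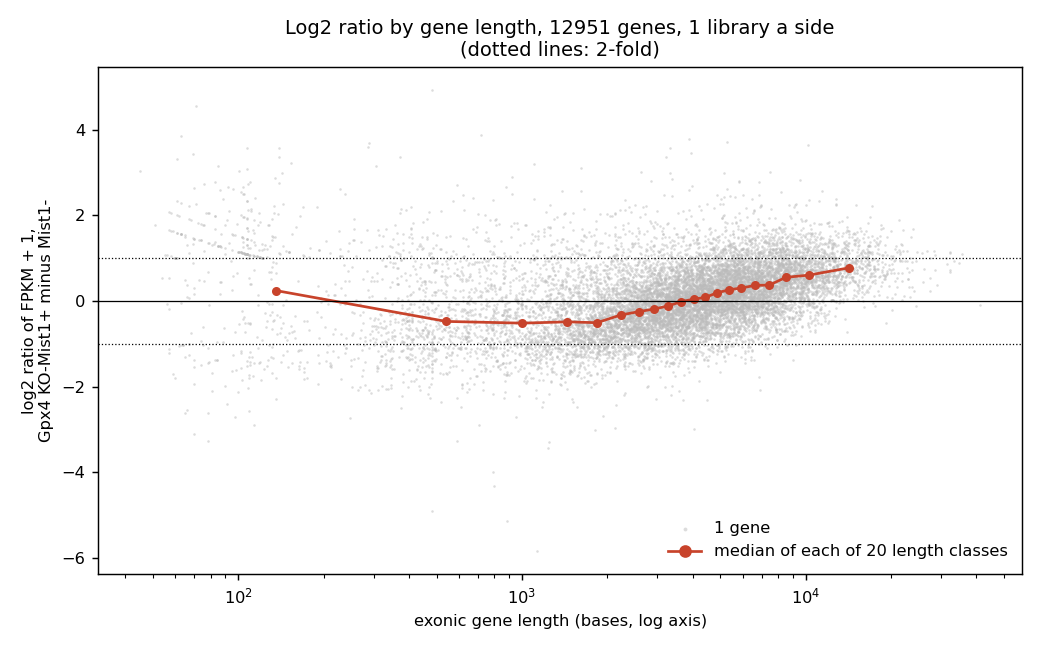
Log2 ratio of FPKM + 1 (Gpx4 KO-Mist1+ minus Mist1-, vertical axis) against exonic gene length (bases, log axis) for 12951 genes, with the median of 20 length classes in red. The class of the shortest genes lies at 0.24. The class medians lie near -0.5 between 541 and 1838 bases and climb to 0.77 in the class of the longest genes.

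Genes of the hypoxia response stood higher in the library labelled Gpx4 KO-Mist1+, with the highest median among the lists of over 20 genes tested. In this response the transcription factors HIF1A and EPAS1 are stabilised when prolyl hydroxylases lack oxygen, and bind with ARNT to the core motif of hypoxia response elements. Of 36 listed genes, 32 passed the filter, and 18 of these were at least 2-fold higher and 1 lower, beside 12.0% and 8.83% of all genes. The list's median log2 ratio was 1.11 against 0.09 for all genes, and 1.0 above genes of like length. In 28 of the 32 genes the library labelled Gpx4 KO-Mist1+ was the highest of the 3, which was so for 31.4% of all genes tested.

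The promoters of 3 hypoxia response genes are shown because these genes had the largest ratios of the list with a sequence at hand. They run from 250 bases before to 50 after the RefSeq start on GRCm38.p6, written in the direction of the gene, with each match to ACGTG or GCGTG on either strand in capitals; such a match can also be part of the longer E-box CACGTG. They are Ero1a (chr14:45318523-45318822, minus strand), Adm (chr7:110627407-110627706, plus strand) and Egln3 (chr12:54203825-54204124, minus strand), with 3, 2 and 1 matches.
Ero1a: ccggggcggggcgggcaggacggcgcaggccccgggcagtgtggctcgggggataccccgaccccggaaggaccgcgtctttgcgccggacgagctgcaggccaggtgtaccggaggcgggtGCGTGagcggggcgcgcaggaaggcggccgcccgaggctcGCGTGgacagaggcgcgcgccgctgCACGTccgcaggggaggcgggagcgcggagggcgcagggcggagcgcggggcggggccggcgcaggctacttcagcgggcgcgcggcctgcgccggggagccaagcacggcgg
Adm: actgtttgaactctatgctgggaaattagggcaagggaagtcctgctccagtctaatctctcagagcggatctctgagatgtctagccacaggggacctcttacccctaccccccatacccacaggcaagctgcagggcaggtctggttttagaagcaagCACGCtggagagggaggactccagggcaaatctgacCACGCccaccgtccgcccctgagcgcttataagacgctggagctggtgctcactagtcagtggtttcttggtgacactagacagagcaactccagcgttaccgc
Egln3: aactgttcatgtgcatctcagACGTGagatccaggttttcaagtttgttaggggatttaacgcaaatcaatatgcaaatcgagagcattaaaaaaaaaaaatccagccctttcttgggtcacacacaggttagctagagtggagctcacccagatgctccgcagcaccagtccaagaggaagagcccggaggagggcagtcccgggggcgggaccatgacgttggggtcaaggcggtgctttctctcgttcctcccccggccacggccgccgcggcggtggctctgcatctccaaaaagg
Of the 26 list members tested that had a promoter in RefSeq, 24 held at least 1 match (92.3%). The share was 43.8% over all 32851 promoters and 62.9% over the promoters of all genes tested. The list share counts genes with a match in any of their promoters, while the other shares count promoters, so the units differ. A match is a string of letters in this window and not a measured site of binding.

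Ero1a, the oxidase that makes disulfide bonds in the endoplasmic reticulum (chromosome 14, 45283087 to 45318771, minus strand), had an FPKM of 35.0 in Mist1- and 20.8 in Mist1+, against 465 in Gpx4 KO-Mist1+. That is 13.3-fold higher than in Mist1- (12.8 to 13.8). Adm, the vasodilator peptide adrenomedullin, was at 3.84, 0.760 and 27.7 in the same order, 7.20-fold higher (5.80 to 9.04). Both were far above either of the other libraries. Egln3, a prolyl hydroxylase that acts back on HIF, was at 43.8, 15 and 204. Car9, a surface carbonic anhydrase that buffers acid, was at 64.8, 22.1 and 283. Vegfa, the vascular growth factor, was at 21.7, 24.3 and 98.6. Each of the 3 was between 4.37 and 4.65 times its level in Mist1-. The stress gene Ndrg1 was at 10.6 in Mist1- and 48.1 in Gpx4 KO-Mist1+, the mitophagy receptor gene Bnip3 at 46.3 and 151, and Ddit4, an inhibitor of mTORC1, at 35.6 and 103. The transcript of Hif1a was at 8.66, 15.6 and 17.1 and that of Epas1 at 2.17, 4.07 and 5.14, so both were close to Mist1+ and less than 2-fold apart from Mist1- on the log2 scale used. Not all members stood higher: Higd1a, an inner-membrane protein of mitochondria, was at 32.2, 12.5 and 15.2, and Ankrd37 at 29.8, 7.71 and 27.3.

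Glycolysis, the route from glucose to pyruvate and lactate, stood higher in most of its genes. Of 23 listed genes 21 passed the filter, 8 were at least 2-fold higher and 0 lower, beside 12.0% and 8.83% of all genes, with a median log2 ratio of 0.73 and 0.79 above genes of like length. At the entry, the hexokinase gene Hk2 was at an FPKM of 10.1 in Mist1- and 11.9 in Mist1+, against 30.2 in Gpx4 KO-Mist1+, and Hk1 at 6.86, 7.81 and 20.7. Pgk1, which makes ATP in the pathway's lower part, was at 466, 210 and 978, 2.10-fold higher (2.06 to 2.14). The aldolase gene Aldoc was at 7.01, 2.16 and 27.0, the largest ratio of the list. The genes for the enzyme that makes lactate, Ldha and Ldhb, were below their Mist1- level. Ldha was at 443, 199 and 382, Ldhb at 42.8, 34.9 and 23.7, and Tpi1, a triose isomerase, at 389, 172 and 332. Pdk1, which holds pyruvate back from the citrate cycle, was at 17.6, 16.3 and 40.9. Pfkfb3, which makes the activator of phosphofructokinase and is on the hypoxia response list instead, was at 1.84, 1.78 and 11.6.

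Genes of glycogen metabolism stood higher too, with 9 of 20 genes tested at least 2-fold higher (12.0% of all genes) and 0 lower (8.83%), a median of 0.73 and 0.56 above like length, and with Ppp1r3b and Ppp1r3c shared with the hypoxia list. Ppp1r3c, a subunit that directs protein phosphatase 1 to glycogen, was at an FPKM of 0.520 in Mist1- and 0.520 in Mist1+, against 5.19 in Gpx4 KO-Mist1+. Its relative Ppp1r3b was at 1.80, 1.55 and 9.81, and Stbd1, which tethers glycogen to membranes, at 1.39, 0.780 and 9.42. The synthase gene Gys1 was at 5.20, 5.99 and 16. A further phosphatase subunit, Ppp1r3a, was on the other side at 2.88, 18.7 and 1.83. The citrate cycle had 0 of 24 genes higher and 1 lower. Its median of -0.09 turned to 0.20 on TPM, where all genes had a median of 0.41.

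**Figure D2:**
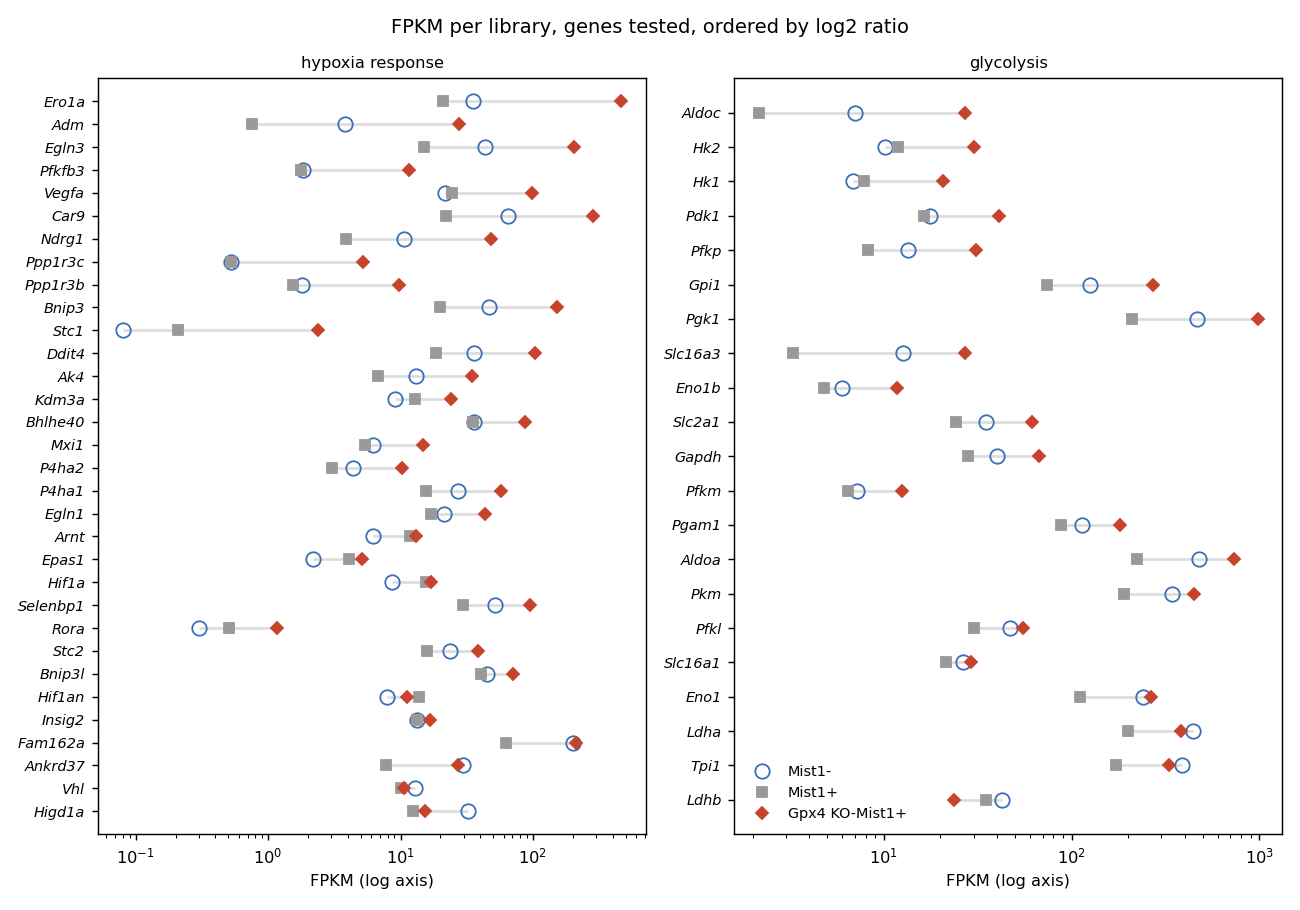
FPKM (log axis) of the 32 hypoxia response and 21 glycolysis genes tested in Mist1- (open blue circles), Mist1+ (grey squares) and Gpx4 KO-Mist1+ (red diamonds), ordered by log2 ratio. The red diamond is the rightmost mark for 28 hypoxia response genes and 18 glycolysis genes.

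Genes of the integrated stress response and of amino acid supply formed a further group that stood higher. In this response ATF4 turns on amino acid transporters, synthetases and regulators such as Trib3 and Chac1. Of 33 genes tested 10 were at least 2-fold higher and 0 lower, where all genes gave 12.0% and 8.83%, with a median of 0.60 and 0.53 above like length, and 29 were highest in Gpx4 KO-Mist1+. The list shares Ero1a, its top member, with the hypoxia response. The transcript of Atf4 itself was not higher, at an FPKM of 139 in Mist1- and 86.3 in Mist1+, against 111 in Gpx4 KO-Mist1+. Atf3, a stress-induced transcription factor gene that this list does not hold, went the other way. It was at 21.3, 35.2 and 3.17, 6.73-fold lower than in Mist1- (5.50 to 8.29). Trib3, a pseudokinase, was at 1.51, 0.580 and 9.16, 6.06-fold higher (4.46 to 8.39). Vldlr, a lipoprotein receptor, was at 3.56, 4.49 and 20.4. Slc7a11, which imports the cystine that feeds glutathione synthesis and so supplies Gpx4, was at 5.24, 5.41 and 17.9, 3.42-fold higher (3.20 to 3.66). Chac1, which degrades glutathione, was at 2.33, 0.870 and 7.79. Pycr1, of proline synthesis, was at 1.11, 0.970 and 5.19, and the amino acid transporter gene Slc7a5 at 14.4, 19.3 and 39.4. Transcripts for the import of cystine and for the breakdown of glutathione thus stood higher at the same time, while Asns, the asparagine synthetase gene, was little apart at 161, 175 and 192.

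The promoters of Trib3 (chr2:152344011-152344310, minus strand) and Slc7a11 (chr3:50443564-50443863, minus strand) are shown with matches to the C/EBP-ATF response element core TGATGNAA on either strand in capitals, since they are the highest members of this list that hold one. They hold 1 and 2 matches; the promoter window of Vldlr held 0.
Trib3: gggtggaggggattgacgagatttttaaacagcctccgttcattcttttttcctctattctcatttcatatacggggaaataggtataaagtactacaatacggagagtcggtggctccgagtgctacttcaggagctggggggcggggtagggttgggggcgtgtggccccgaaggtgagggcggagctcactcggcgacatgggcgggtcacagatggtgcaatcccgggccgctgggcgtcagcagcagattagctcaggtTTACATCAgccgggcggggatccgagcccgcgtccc
Slc7a11: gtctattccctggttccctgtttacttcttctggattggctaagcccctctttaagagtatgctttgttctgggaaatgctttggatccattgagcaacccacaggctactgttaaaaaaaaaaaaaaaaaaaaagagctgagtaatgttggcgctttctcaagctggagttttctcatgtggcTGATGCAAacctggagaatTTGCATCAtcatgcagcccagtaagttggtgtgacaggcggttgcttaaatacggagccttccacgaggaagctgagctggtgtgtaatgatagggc
Of the 27 members tested with a promoter, 9 (33.3%) held the motif. It was in 4.0% of all promoters and in 2.1% of those of genes tested, and 0 of 20 glycolysis genes held it. Here too the list shares count genes with a match in any of their promoters, and the other shares count promoters.

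Genes of iron handling differed among themselves. Of 27 genes tested 9 were at least 2-fold higher and 3 lower (Ftl1, Iscu and Id1, a BMP target), beside 12.0% and 8.83% of all genes. The median log2 ratio was 0.40, and 0.26 above like length. Against like length 7 were past 2-fold above and 0 below, and on TPM 12 were higher and 1 lower. The plasma iron carrier transferrin, Trf (chromosome 9, 103204001 to 103230444, minus strand), had an FPKM of 86.4 in Mist1- and 27.2 in Mist1+, against 1045 in Gpx4 KO-Mist1+, 12.1-fold higher than in Mist1- (11.7 to 12.5). Its receptor gene Tfrc was at 15.8, 24.4 and 74.1, 4.68-fold higher (4.42 to 4.95). The ferric reductase gene Cybrd1 was at 62.6, 21.3 and 156, and the zinc and iron importer gene Slc39a8 at 7.45, 11 and 20.4. The importer genes Slc39a14 and Slc11a2 were within 2-fold, with log2 ratios of 0.96 and 0.07. Cp, the ferroxidase ceruloplasmin, was at 3.62, 2.80 and 31.8. Lcn2, which binds bacterial iron carriers, was at 3.21, 2.05 and 32.6, and Ltf, lactoferrin, at 16.8, 9.81 and 43.3. Ncoa4, the receptor that delivers ferritin for breakdown, was at 4.86, 9.08 and 16.3, and Fbxl5, the iron sensor that removes IRP2, at 7.67, 9.79 and 22.1. The ferritin chains that store iron were below their Mist1- level. Ftl1, the light chain, was at 1857, 820 and 905, 2.05-fold lower than in Mist1- (2.02 to 2.09), and Fth1, the heavy chain, at 280, 181 and 200. The scaffold of iron-sulfur cluster assembly, Iscu, was at 24.2, 14.9 and 11, and the exporter gene Slc40a1 was low throughout, at 1.33, 1.56 and 1.93.

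Other genes with a part in ferroptosis were spread around 0. Of 25 genes of ferroptosis defence 1 was at least 2-fold higher and 2 lower, beside 12.0% and 8.83% of all genes. Slc7a11 stood higher, and Ftl1 and the mitochondrial iron-sulfur protein gene Cisd1 lower. The list's median of -0.14 turned to 0.14 on TPM, where all genes had a median of 0.41. Against like length it was -0.22, with 0 genes past 2-fold above and 1 below. Aifm2, the Gpx4-independent guard FSP1, was at 2.74, 2.89 and 3.74, and Dhodh at 3.77, 3.84 and 2.50. The list of genes that promote ferroptosis had a median of 0.26. Against like length it was 0.14, with 3 genes past 2-fold above and 1 below. Among the 22 genes tested of this list, 4 were 2-fold or more above Mist1- and 0 below, beside the same shares of all genes. They were Tfrc, Ncoa4 and Chac1, which other lists hold, and Acsl4, the ligase that loads polyunsaturated fatty acids into phospholipids, at 29.5, 41.8 and 64.8, 2.2-fold higher (2.09 to 2.30).

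Antioxidant enzymes had medians below 0, but the number past 2-fold depended on length and scale. Among the glutathione peroxidases, Gpx1 was at an FPKM of 127 in Mist1- and 59.8 in Mist1+, against 49.4 in Gpx4 KO-Mist1+, Gpx2 at 851, 457 and 481, and Gpx8 at 79.3, 58.8 and 33.2. Of the 6 members tested, Gpx4 included, 5 had a ratio under 0 and 2 were at least 2-fold lower, while 0 were 2-fold below genes of like length and 1 above. Of 50 glutathione transferase and NRF2 target genes 14 were at least 2-fold lower and 4 higher, beside 8.83% and 12.0% of all genes, with a median of -0.47 and -0.32 against like length. Against like length 4 were past 2-fold below and 2 above, and on TPM 6 were lower and 5 higher with a median of -0.19. Gsta1, an alpha-class transferase, was at 349, 100 and 52.6, 6.63-fold lower (6.16 to 7.15); its near copy Gsta2 was at 11.2, 2.83 and 4.04, and reads of the pair may be shared. Gsta4, which conjugates the lipid peroxidation product 4-hydroxynonenal, was at 2341, 1249 and 644, 3.63-fold lower (3.56 to 3.71). The 4 that stood higher were Slc7a11, the efflux pump genes Abcc1 and Abcc4, and Gstt1. Of 20 thioredoxin and peroxiredoxin genes 6 were at least 2-fold lower, 3 on TPM and 3 against like length, among them Sod1 at 170, 69.6 and 63.8 and Txn1 at 570, 274 and 241. The 1 member higher was Txnip, an inhibitor of thioredoxin, at 78.3, 101 and 197. For Gpx1, Gpx2, Sod1 and Txn1 the level in Mist1+ was near that in Gpx4 KO-Mist1+, and Mist1- stood apart.

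**Figure D3:**
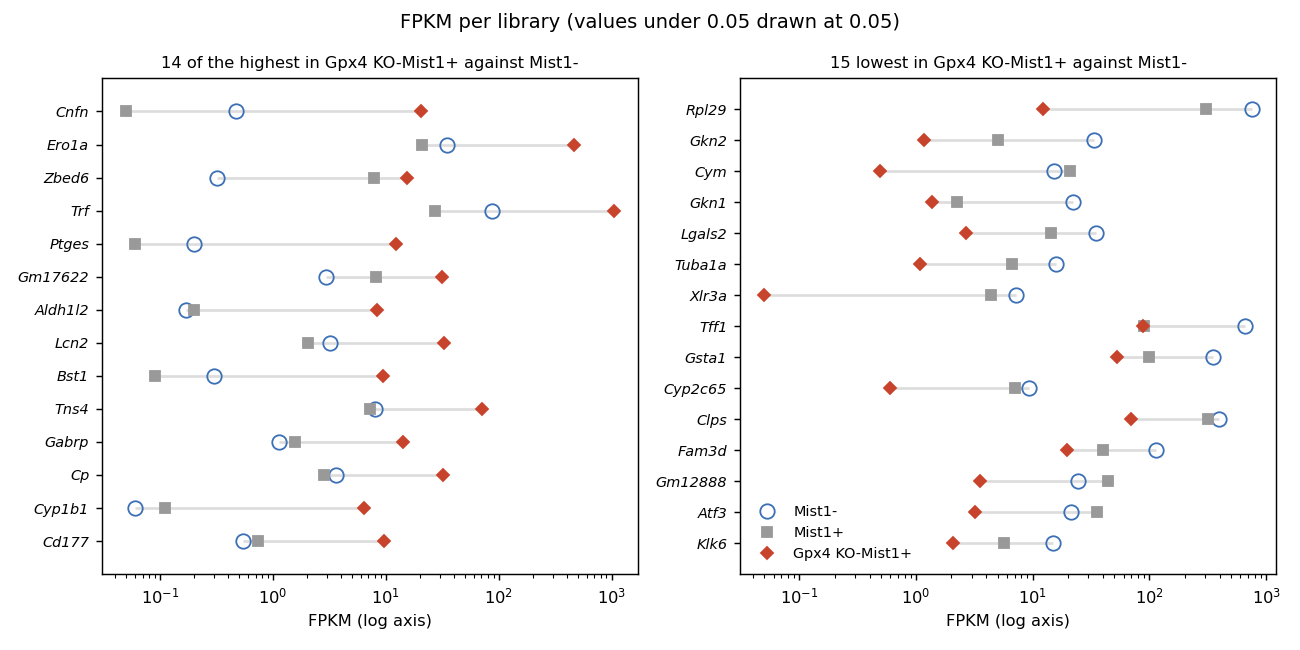
FPKM (log axis) of 14 of the protein-coding genes with the highest and the 15 with the lowest log2 ratio in Mist1- (open blue circles), Mist1+ (grey squares) and Gpx4 KO-Mist1+ (red diamonds). Trf reaches 1045 in Gpx4 KO-Mist1+, and Rpl29 stands at 755 in Mist1- and at 12.2 in Gpx4 KO-Mist1+.

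Among the 7775 protein-coding genes with a symbol that reached an FPKM of 5 on either side, Cnfn had the highest ratio. Cnfn, cornifelin of the cornified envelope, had 5 counts in Mist1- and 0 in Mist1+, against 242 in Gpx4 KO-Mist1+. Ptges, the inducible synthase of prostaglandin E2, had 12, 4 and 786 counts, 59.7-fold more (34.0 to 116). Cnfn and Ptges were near silent in both other libraries. Cyp1b1, a cytochrome P450 of the aryl hydrocarbon receptor response, had 5, 10 and 608 counts, and Aldh1l2, a mitochondrial folate enzyme, had 19, 24 and 1030. Bst1, an NAD glycohydrolase of the cell surface, was at 0.3, 0.0900 and 9.34. Tns4, a tensin at focal adhesions, was at 8.00, 7.25 and 70.4, Gabrp, a GABA receptor subunit, at 1.13, 1.55 and 14.2, and Cd177, a surface glycoprotein, at 0.540, 0.740 and 9.64. For these, too, the 2 other libraries were close together and the library labelled Gpx4 KO-Mist1+ stood alone. Zbed6 was at 0.320, 7.88 and 15.3; it lies inside Zc3h11a, whose FPKM were 0.900, 5.50 and 9.55, so their reads may be shared. Gm17622 rests on 2, 6 and 23 counts over a length of 45 bases. Relative to genes of like length the highest 10 also took in Adm and Tigit, a receptor of T and natural killer cells, with 29, 12 and 248 counts.

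Rpl29, a protein of the large ribosomal subunit (chromosome 9, 106429454 to 106431568, plus strand), had the lowest ratio. It had 12706 counts in Mist1- and 5584 in Mist1+, against 225 in Gpx4 KO-Mist1+, 62.0-fold less than in Mist1- (54.3 to 71.0). No other cytosolic ribosomal protein gene was near that: the next, Rpl41, was 2.95-fold lower. Reads of Rpl29 can be shared with its pseudogenes, of which Rpl29-ps1 had 0, 0 and 0 counts and Rpl29-ps2 1, 3 and 1. Xlr3a, of a multicopy family on the X chromosome, had 434, 288 and 1 counts, and its copy Xlr3b 30, 85 and 0. Cym, the milk-clotting protease chymosin, was at an FPKM of 15.1, 21 and 0.490, and Clps, colipase, at 391, 316 and 69.2. Atf3, a stress-induced transcription factor, was at 21.3, 35.2 and 3.17, and Cyp2c65, a cytochrome P450 of the gut, at 9.27, 7.08 and 0.6. For Cym, Clps, Atf3 and Cyp2c65 the libraries labelled Mist1- and Mist1+ were alike in having the gene. Lgals2, a galectin, was at 34.6, 14.2 and 2.68, Tuba1a, an alpha-tubulin, at 15.8, 6.65 and 1.08, and Fam3d, a secreted gut factor, at 114, 40.2 and 19.6; these 3 stepped down over the 3 libraries. Among the longest quintile of genes, where few stood lower, Erp29 of the endoplasmic reticulum was at 25.9, 14.4 and 9.29, Nasp, a histone chaperone, at 32.2, 23 and 13, and Mrpl33 at 17.7, 8.28 and 7.73.

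Markers of the gland's cell types differed by type. Surface pit cells, the foveolar mucous cells that face the lumen, had 3 of 7 genes tested at least 2-fold lower (8.83% of all genes) and 0 higher, with a median of -0.76. Gkn2 and Gkn1, the secreted gastrokines, were far higher in Mist1- than in the others. Gkn2 was at an FPKM of 33.5, 5.02 and 1.16, and Gkn1 at 22.2, 2.22 and 1.37. Tff1, the trefoil peptide of pit cells, was at 657, 90.6 and 87.7, 7.49-fold lower than in Mist1- (7.01 to 8.01). The pit mucin gene Muc5ac was not tested, with 35, 24 and 31 counts. Gkn1, Gkn2 and Tff1 were thus highest by far in Mist1-, and Psca, of the same list, stood on the other side at 26.8, 13.2 and 45.0.

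Chief cell genes were mixed. Of 6 tested, 0 were at least 2-fold higher and 1 lower, beside 12.0% and 8.83% of all genes. The median was 0.27, and 0.53 above like length. Pgc, pepsinogen C, was at an FPKM of 1539 in Mist1- and 2579 in Mist1+, against 2084 in Gpx4 KO-Mist1+, and Cblif, gastric intrinsic factor, at 403, 823 and 502. Both were between the other libraries. Xbp1, which drives the secretory apparatus, was at 107, 108 and 210. Cckar, the cholecystokinin receptor gene, was at 13.8, 48.0 and 1.97, 7.02-fold lower than in Mist1- (5.78 to 8.59) although Mist1+ had the highest level. Cckar was the 1 gene of this list past 2-fold.

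Mucous neck cell genes had 3 of 9 at least 2-fold higher and 1 lower, beside 12.0% and 8.83% of all genes, with a median of 0.67 and 0.86 above like length. Aqp5, a water channel of neck and pyloric gland cells, was at 146, 97.2 and 568, 3.90-fold higher (3.79 to 4.01). Muc6, the gland mucin, stood 2-fold or more above Mist1- but was as high in Mist1+, with an FPKM of 5.71 in Mist1- and 20.6 in Gpx4 KO-Mist1+, and Gkn3 was at 861, 624 and 1320. The neck trefoil peptide Tff2 was not higher, at 178, 52.5 and 111, and the transcription factor gene Creb3l4 was lower, at 17.5, 18.9 and 6.39. Of 16 genes of spasmolytic polypeptide-expressing metaplasia 6 were at least 2-fold higher and 0 lower, with a median of 0.53. Aqp5 and Slc7a11 are on this list as well, and it includes Cd44, a hyaluronan receptor, at 29.8, 29.9 and 113, 3.82-fold higher (3.67 to 3.97), and Muc4, a membrane mucin, at 0.800, 3.03 and 7.69. Members below their Mist1- level included Clu, clusterin, at 5191, 4924 and 3246, and Gpx2, at 851, 457 and 481, while Gkn3, as abundant as Gpx2, is on this list and stood above it.

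Wnt targets stood higher in the library labelled Gpx4 KO-Mist1+. On FPKM all 16 tested had a ratio above 0, 7 were at least 2-fold higher and 0 lower (12.0% and 8.83% of all genes), the median was 0.93 and 1.05 above like length, and 15 were highest in the library labelled Gpx4 KO-Mist1+. Lgr5, the R-spondin receptor that marks stem cells and some chief cells, was at an FPKM of 6.40 in Mist1- and 10.9 in Mist1+, against 37.0 in Gpx4 KO-Mist1+, 5.79-fold higher than in Mist1- (5.41 to 6.20). Axin2, a feedback inhibitor of the pathway, was at 2.78, 5.71 and 12.3, and Tnfrsf19, also called Troy, at 16.4, 28.1 and 77.3. For these 3 genes Mist1+ lay between. Ccnd1, cyclin D1, was at 38.3, 46.5 and 106, and Nkd1, another inhibitor, at 0.460, 0.460 and 2.77. The least apart were Notum at 1.17, 1.26 and 1.72 and Ascl2 at 4.74, 2.06 and 7.52.

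**Figure D4:**
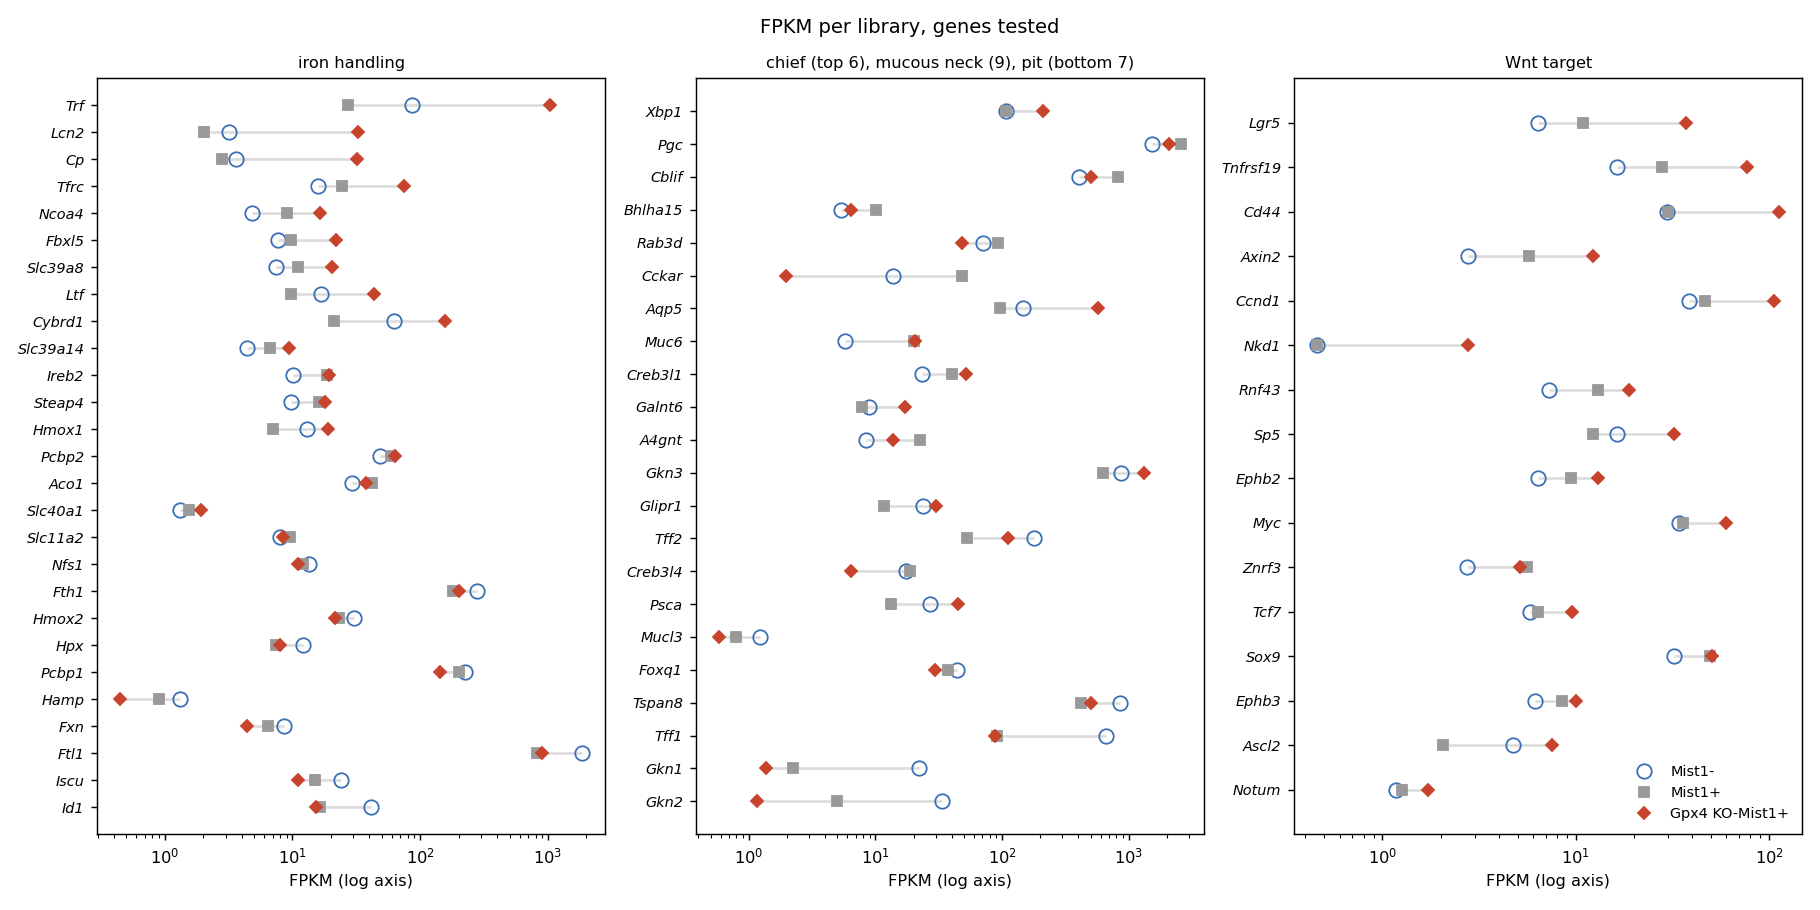
FPKM (log axis) of genes tested for iron handling, for chief, mucous neck and pit cells, and for Wnt targets in Mist1- (open blue circles), Mist1+ (grey squares) and Gpx4 KO-Mist1+ (red diamonds). Trf and the Wnt target Lgr5 are highest in Gpx4 KO-Mist1+, while Gkn2, Gkn1 and Tff1 are highest in Mist1-.

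Other signalling lists leaned the same way. Of 21 TGF-beta and BMP genes 10 were at least 2-fold higher and 2 lower, beside 12.0% and 8.83% of all genes, with a median of 0.89 and 0.53 above like length. The ligand gene Tgfb3 was at 9.30, 12.2 and 54.8, 5.89-fold higher (5.34 to 6.5), the ligand gene Bmp2 at 2.52, 2.73 and 8.96, and the transducer gene Smad3 at 5.10, 8.51 and 18.0. The 2 lower were the BMP targets Id1, at 41.4, 16.4 and 15.4, and Id3, at 4.11, 1.79 and 0.340. Other BMP targets on the list were within 2-fold, with a log2 ratio of -0.70 for Id2 and 0.39 for Smad6. Of 31 genes of the extracellular matrix and its integrins 16 were at least 2-fold higher and 0 lower, with a median of 1.08. This list is of long genes, with a median length of 7021 bases, and against genes of like length its median was 0.69 and 5 genes were past 2-fold. The laminin chain gene Lama5 was at 9.56, 22.0 and 61.8, 6.47-fold higher (6.14 to 6.82), Lamc1 at 8.36, 21.5 and 27.6, and the collagen receptor gene Itga2 at 8.17, 10.9 and 27.8.

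Of 24 YAP and regeneration genes 9 were at least 2-fold higher and 1 lower, against 12.0% and 8.83% of all genes, a background that holds for the EGF and Notch lists too, with a median of 0.86 and 0.64 above like length. Ccn2, a secreted matricellular target, was at 49.8, 32.3 and 133, and F3, tissue factor, at 20.9, 16.6 and 61.4. Of 15 genes tested on the EGF receptor list 5 were higher and 0 lower, with a median of 0.42 and 0.51 above like length. This list holds targets of the pathway beside receptors and ligands, and the targets Dusp6 and Etv5 are among the 5. The ligands Areg and Hbegf were little apart, at 11.5, 3.25 and 12.6 and at 34.1, 46.0 and 37.4. The receptor gene Egfr was at 1.80, 2.82 and 5.47, and the targets Dusp6 and Etv5 at 15.7, 19.3 and 47.8 and at 10.2, 16.4 and 31.8. Of 16 Notch genes 5 were higher and 0 lower with a median of 0.71, which was 0.28 against like length. The receptor gene Notch3 was at 0.6, 1.44 and 4.18, while Hes1, a target, was at 60.0, 49.9 and 53.2.

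Lists of protein synthesis, protein turnover and respiration stood lower, beside 8.83% of all genes at least 2-fold lower. Of 78 mitochondrial ribosomal protein genes 41 were at least 2-fold lower and 0 higher, with a median of -1.02 and -0.79 against like length, and 28 were past 2-fold below like length. Mrpl20 was at an FPKM of 46.5 in Mist1- and 19.4 in Mist1+, against 11.6 in Gpx4 KO-Mist1+, and Mrps12 at 60.5, 25 and 15.8. Of 77 cytosolic ribosomal protein genes 32 were lower and 0 higher, with a median of -0.95 and -0.52 against like length. Here the number depends on the scale, since 12 were past 2-fold on TPM and 9 below like length. The order of the libraries differed between these lists: the library labelled Gpx4 KO-Mist1+ was the lowest of the 3 for 67 of 78 mitochondrial and 2 of 77 cytosolic ribosomal protein genes, beside 34.7% of all genes tested.

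Of 46 proteasome subunit genes 22 were at least 2-fold lower and 0 higher, beside 8.83% and 12.0% of all genes, with a median of -0.95 and -0.72 against like length. The number lower depends on the scale here too, at 9 on TPM and 10 against like length. Psmc5, an ATPase of the regulatory particle, was at 130, 77.4 and 40.2, and Psmb10, a subunit of the immunoproteasome, at 25.2, 15.5 and 6.15. Only the activator gene Psme4 of this list had a ratio above 0, at 17.5, 30.2 and 26.6. Of 36 nuclear genes of respiratory complex I 19 were lower and 0 higher, with a median of -1.02 and -0.69 against like length. On TPM 12 were lower, and 10 were past 2-fold below like length. Ndufa5 was at 76.6, 26.6 and 19.6, and Ndufs1, which carries iron-sulfur clusters, at 14.2, 15.3 and 16.4. Of 38 genes of complexes II to V 22 were lower and 0 higher, with a median of -1.16 and -0.68 against like length. On TPM 14 were lower, and 14 were past 2-fold below like length. Atp5k was at 146, 45.3 and 35.0, while the flavoprotein gene Sdha was level at 84.0, 75.5 and 82.3.

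The proteins encoded by the mitochondrial genome did not follow the nuclear ones. Their median of -0.34 turned to 0.04 against like length. Of 13 tested, 3 were at least 2-fold higher (mt-Co1, mt-Nd5 and mt-Atp8) and 1 lower (mt-Nd3), beside 12.0% and 8.83% of all genes. The cytochrome oxidase gene mt-Co1 was at an FPKM of 9084, 11759 and 19782 and mt-Nd5, of complex I, at 684, 2079 and 1791, while mt-Cytb, of complex III, was level at 5455, 6729 and 5125. Mitochondrial genes together took 3.57% of the counts of Mist1-, 4.26% of Mist1+ and 5.14% of Gpx4 KO-Mist1+.

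Genes of DNA replication stood lower. Of 38 tested 11 were at least 2-fold lower and 0 higher, beside 8.83% and 12.0% of all genes, with a median of -0.69 both before and after the length step, and 35 were lowest in the library labelled Gpx4 KO-Mist1+. Pcna, the sliding clamp, was at 172, 124 and 71.8, 2.39-fold lower (2.29 to 2.50), Tyms, thymidylate synthase, at 27.3, 17.1 and 9.25, and Ccne1, cyclin E1, at 11.5, 11.4 and 3.80. Of 12 replication-dependent histone genes 9 were lower and 0 higher, several from few counts. These genes are short, with a median of 715 bases, and 3 were 2-fold below genes of like length; the list's median was -1.16 and ranged from -2.15 to -0.36 over the alternatives. Of 33 mitosis genes 2, Birc5 and Cdk1, were lower and 0 higher, with a median of -0.31, a share of lower genes under that of all genes. Birc5, survivin, was at 46.5, 27.8 and 14.1 and Cdk1 at 41.9, 29.0 and 20.3. Mki67, the usual mark of cycling cells, was instead at 46.3, 82.5 and 66.0, which is -0.10 on the log2 scale against genes of like length. Stmn1, a microtubule regulator of dividing cells, was at 199, 120 and 56.6, and is on the isthmus and stem cell list, not the mitosis list. Of the 17 isthmus and stem cell genes tested, 5 were at least 2-fold higher and Stmn1 was the 1 lower. The median of that list was 0.57, and 0.27 against like length. Of 36 ribosome biogenesis genes 7 were lower and 0 higher, with a median of -0.49, although Myc, which drives them, was at 34.4, 35.9 and 59.9.

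The cell cycle inhibitor gene Cdkn1a was higher, at 17.2, 10.1 and 38.3, 2.23-fold (2.06 to 2.41). The other CDK inhibitors were within 2-fold. The list's median of -0.16 turned to 0.12 on TPM, where all genes had a median of 0.41, and to 0.37 against like length. Of 30 p53 targets 7 were at least 2-fold higher and 0 lower (12.0% and 8.83% of all genes), with a median of 0.28 and 0.47 above like length. Eda2r, a death receptor of the TNF family, was at 2.79, 3.92 and 13, and Zmat3, an RNA-binding protein, at 5.14, 7.84 and 14.3. Bax, the pore-forming killer protein, was at 130, 49.5 and 65.7, and the transcript of Trp53 at 23.6, 29.2 and 18.2.

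**Figure D5:**
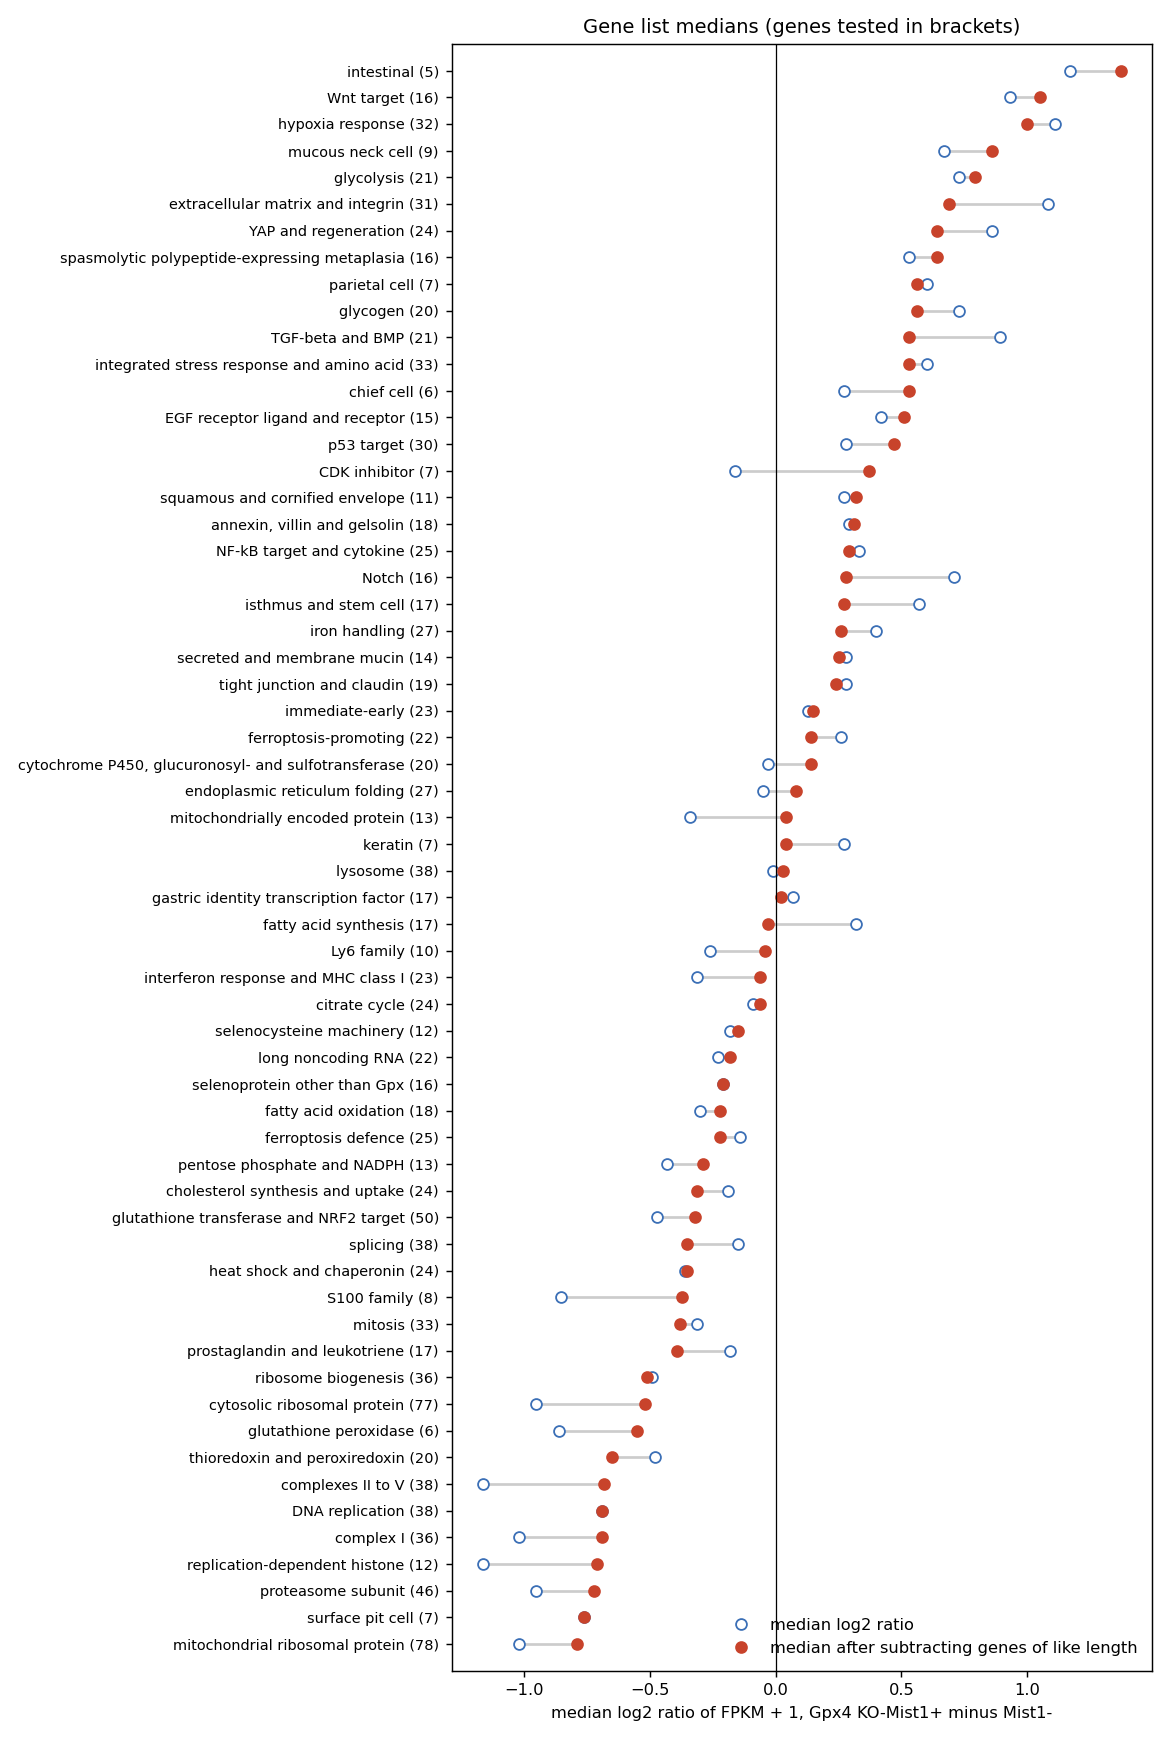
Median log2 ratio of FPKM + 1 (Gpx4 KO-Mist1+ minus Mist1-) of 60 gene lists, as measured (open circles) and after subtracting the median of genes of like length (filled circles), with the number of genes tested in brackets. Hypoxia response lies at 1.11 and 1.0, and mitochondrial ribosomal protein at -1.02 and -0.79.

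Genes of prostaglandin and leukotriene metabolism went both ways, with 3 of 17 at least 2-fold higher and 5 lower, beside 12.0% and 8.83% of all genes. The list's median of -0.18 turned to 0.17 on TPM, where all genes had a median of 0.41. Against like length it was -0.39, with 1 gene past 2-fold above and 3 below. On FPKM, the genes past 2-fold upward were Ptges, Ptgs1 and Abcc4. Ptgs1 and Ptgs2, the cyclooxygenases, were at 0.400, 0.430 and 1.82 and at 0.190, 0.470 and 1.27, and Ptges was at 0.200, 0.0600 and 12.2. The degrading enzymes stood lower, with Hpgd at 8.83, 9.98 and 3.30 and Ptgr1 at 374, 222 and 134. Pla2g10, a secreted phospholipase, was also lower, at 14.9, 10.2 and 2.27. Abcc4, which exports prostaglandins, was at 9.24, 14.8 and 21.1.

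A few genes were read in 1 of the compared libraries and had 0 counts in the other. H2-T24, a nonclassical class I gene, had 0 counts in Mist1- and 40 in Mist1+, against 64 in Gpx4 KO-Mist1+, at least 19.4-fold higher against a floor of 3 counts per library. Fbln2, the matrix protein fibulin-2, had 0, 1 and 54 counts, at least 16.4-fold higher. The unnamed transcript Gm11732 had 70, 72 and 0 counts, at least 25.6-fold lower. H2-T24 and Gm11732 thus set 1 library apart, a different one in each case.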

How the data were processed

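RNA was sequenced from 3 organoid libraries, 1 per group. The tools cutadapt 1.9.1, HTSeq 0.6.1 and HISAT2 2.2.1 and the build GRCm38.p5 are named, with no role, in the submitters' processing notes. The deposited table gives, per the file headers, a count and an FPKM per gene and library; recomputing FPKM from counts, exonic length and column totals differed by at most 2.77% over genes with at least 50 counts. No count model was run. Ratios are log2 of FPKM plus a pseudocount of 1, for genes reaching an FPKM of 1 on either side. Folds and intervals use counts scaled to column totals, with matplotlib 3.10.9, statsmodels 0.14.6, scipy 1.17.1, pandas 2.3.3, numpy 2.4.6 and Python 3.11.15. The ratio and interval code was tested on simulated data. Lines with no symbol number 2639 and hold at most 0.298% of counts; they stayed in the totals. Biotypes and coordinates are from GENCODE M21, which shares 52073 identifiers; the table's own positions equal it for 1472 and were not used. Promoters are RefSeq's, GRCm38.p6.

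Members and the 65 gene lists were chosen with earlier results of these data known, so no list is independent support. Genes named are Gpx4, Bhlha15, the 15 highest and 15 lowest ratios among protein-coding genes that reached an FPKM of 5 on either side, the 10 highest and lowest against like length, the 3 highest and lowest per length quintile, and, per list, up to 5 members at either end beside members given as values for their role; some that this rule selects are not reported here. Of the lists, 60 had at least 4 genes tested. Alternatives covered the pseudocount, the filter, 3 scalings, length and the fold cutoff.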

Additional observations from a re-analysis of the deposited data

How the results depend on the processing

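Genes at least 2-fold higher numbered 1553 and genes at least 2-fold lower 1143. With a pseudocount of 0.1 there were 2370 higher, and with a pseudocount of 5 there were 349 higher and 564 lower. Requiring an FPKM of at least 5 left 941 higher. TPM gave 4076 higher, among the 15970 genes that passed the filter on that scale. A cutoff of 1.5-fold gave 3360 and 2668, and a cutoff of 4-fold gave 165 and 75. Fewer counts under a stricter filter or cutoff follow from its construction; for the scalings and pseudocounts the cause was not tested. Length classes numbering 10, tried for the lists, gave 722 lower, beside 790 with 20 classes and 1143 without the length step. The other alternatives left each number within 1.5 times. None of the list medians of at least 0.5 in size changed sign under the 11 alternatives tried for lists, nor did the log2 ratio of any of the 43 genes chosen by rank or as a label check, where past 2-fold; other list members were not recomputed one by one. Of 60 lists, 20 with smaller medians changed sign under at least 1 alternative. On TPM the median of all genes was itself 0.41, so a change of sign there is not a change relative to other genes. No paired analysis was possible because each group has 1 library, and no replicate could be left out. A list's low members rest on few counts: at 3 counts, a gene of 1000 bases has an FPKM near 0.2, and an FPKM carries no error between cultures.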

Other observations

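Enzymes of drug metabolism, which the account above left out, went both ways. Of 20 genes of the cytochrome P450, glucuronosyl- and sulfotransferase list 4 were at least 2-fold higher and 4 lower, beside 12.0% and 8.83% of all genes. The list's median of -0.03 turned to 0.24 on TPM, where all genes had a median of 0.41, and to 0.14 against like length. Ahr, the aryl hydrocarbon receptor gene, was at an FPKM of 4.20 in Mist1- and 7.15 in Mist1+, against 15.9 in Gpx4 KO-Mist1+, 3.78-fold higher (3.38 to 4.24). Cyp2s1 was at 18.3, 11.8 and 50.6. The sulfotransferase genes Sult1b1 and Sult1c2 were lower, at 4.14, 3.80 and 0.290 and at 262, 146 and 80.8. The metal-binding protein gene Mt2 was at 2252, 1237 and 467.

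Of 25 NF-kB target and cytokine genes 3 were at least 2-fold higher and 2 lower, with a median of 0.33; these shares are near those of all genes, at 12.0% and 8.83%. Il33, an alarmin held in the nucleus, was at 43.1, 16.4 and 107, and Tnfaip2 at 4.77, 1.54 and 26.5. The cytokine gene Il18 was lower, at 37.0, 28.3 and 10.2, and the neutrophil attractant gene Cxcl5 at 82.3, 35.7 and 39.3. Among squamous genes, Krt4 was at 1.54, 0.980 and 9.49 and Sprr1a at 22.1, 8.74 and 83.8, while Sfn was at 26.4, 13.5 and 11.9. Of 16 intestinal genes 5 passed the filter. Of these 3 were at least 2-fold higher: the brush border protein gene Vil1, at 32.8, 14.2 and 85.0, Gpa33, at 6.44, 5.75 and 15.8, and Lyz1. The other two, Apoa1 and Fabp1, had log2 ratios of -0.16 and -0.14. Naip5 and Naip6, near copies that sense bacterial flagellin, were at 4.23, 4.43 and 15.2 and at 3.95, 8.88 and 32.9, and their reads may be shared. Bsg, the chaperone of lactate transporters, was at 786, 372 and 1955, and its relative Emb at 10.8, 13.5 and 1.77.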
